A study of Mus musculus with 2 samples.

Results

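DNase I cuts accessible chromatin, and within an accessible site the short stretches that a bound protein shields from the enzyme appear as footprints. The regions described here are the strong peaks without any footprint in the spleen, that is, DNase I hypersensitive peaks with a height of 1 or more that overlap no footprint of their own library by 1 bp. There were 1639 of them among 36190 peaks of that height in animal 1, or 4.53%, and 1944 among 39987 in animal 2, or 4.86%, a mean of 4.70% ± 0.235 (SD, n = 2). The longer deposited peak lists held 79246 and 77231 peaks in all, of which 18.4% and 16.3% overlapped no footprint. A height of 1 is close to the median height of these lists, 0.888 in animal 1 and 1.05 in animal 2. It was reached by 45.7% and 51.8% of their peaks, so strong here means about the upper part of the list. The regions without a footprint had median heights of 1.30 and 1.31. The regions were chosen by 2 measured values, the height and the footprint calls, so both are given as description only. The libraries come from the spleens of 2 male mice aged 2 months of the hybrid strain B6CASTF1/J, the F1 offspring of C57BL/6J and CAST/EiJ, with 1 library per animal. Both animals belong to a single group for which the labels name no treatment, so no condition was compared. The labels give the animals separate biological replicate numbers, and name no sort by cell type, so every value averages over the spleen's cells, and a site open in few cells cannot be told apart from one weakly open in many. Reads of both parental genomes were placed on mm10, which holds the C57BL/6J sequence.

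Strong open sites usually carry footprints of factors such as CTCF, ETS proteins and NF-Y. Promoters of mammalian genes often lie in CpG islands, stretches of GC-rich DNA that are open over a wider region than most enhancers, with a nucleosome-depleted centre near the transcription start site (TSS) where the general factors bind. The spleen is rich in B and T lymphocytes. All 6 B cell marker genes had a promoter peak of height 1 or more in both animals, as did 4 of 7 T cell markers, while the 3 neutrophil markers and 4 of 5 markers of other tissues (Alb, Ins2, Krt5 and Myh6) had no promoter peak. The fifth, Gfap, an astrocyte gene, had peaks of 0.702 in animal 1 and 1.47 in animal 2. Markers of 2 other cell types of the spleen mostly fell short. Of 5 red pulp macrophage markers only Hmox1 reached a height of 1 in both animals, and of 4 erythroid markers only Tfrc. In neither animal was a peak called at the promoters of Adgre1, a macrophage marker, or of the erythroid genes Hba-a1 and Gata1.

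A height is the authors' signal, whose unit no source gives in words. Every height up to 2 was within 0.1 of a whole multiple of a step, 0.00716 in animal 1 and 0.00679 in animal 2. If a step is 1 cut, the libraries hold 139.6 and 147.3 M cuts and a peak of height 1 holds 139.6 and 147.3 cuts. Peaks of a library share its reads and are not replicates, and 2 animals of 1 group allow no two-sided exact p under 0.5. Differences between sets of peaks were therefore read against the spread between the animals and carry no p.

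The sequences below are from high loci that lacked a footprint in both animals and are shown to give their base composition beside footprinted promoters of the same height. All are the plus strand of mm10, read 5′ to 3′ from GRCm38.p6, and only bases outside annotated untranslated regions are printed. In the loci without a footprint the capitals mark CpG dinucleotides. Ppp2r5a encodes a regulatory subunit of protein phosphatase 2A, and the printed 216 bp, chr1:191396201-191396416, hold 25 CpG. Jmjd6 encodes an oxygenase that hydroxylates lysines, and chr11:116842801-116843060, 211 bp upstream of its TSS, holds 29 CpG in 260 bp. Arhgap25, a GTPase-activating protein of leukocytes, is shown by chr6:87496315-87496440, with only 3 CpG in 126 bp. An intergenic locus whose nearest protein-coding TSS is that of Hnrnpa3 is shown by chr2:75585081-75585260, with 9 CpG in 180 bp.
Ppp2r5a locus: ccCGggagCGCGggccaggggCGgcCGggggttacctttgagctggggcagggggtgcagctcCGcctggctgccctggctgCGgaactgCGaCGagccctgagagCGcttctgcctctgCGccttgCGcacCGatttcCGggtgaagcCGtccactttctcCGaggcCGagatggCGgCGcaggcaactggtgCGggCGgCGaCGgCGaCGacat
Jmjd6 locus: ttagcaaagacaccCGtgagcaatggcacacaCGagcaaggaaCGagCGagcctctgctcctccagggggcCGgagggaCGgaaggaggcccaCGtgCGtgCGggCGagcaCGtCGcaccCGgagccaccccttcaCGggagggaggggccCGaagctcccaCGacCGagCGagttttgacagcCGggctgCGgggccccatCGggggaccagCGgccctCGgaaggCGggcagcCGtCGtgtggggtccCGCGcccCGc
Arhgap25 locus: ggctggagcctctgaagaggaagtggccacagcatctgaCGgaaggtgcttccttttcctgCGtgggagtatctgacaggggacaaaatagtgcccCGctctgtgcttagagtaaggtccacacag
Intergenic locus nearest Hnrnpa3: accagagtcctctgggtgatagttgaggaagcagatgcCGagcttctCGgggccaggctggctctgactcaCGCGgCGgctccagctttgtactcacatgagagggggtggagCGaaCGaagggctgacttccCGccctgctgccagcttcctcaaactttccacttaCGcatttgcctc

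The next 2 sequences carry footprints, and the capitals mark the footprints of animal 1. They show how a peak of the same class and height is divided into protected stretches. They are the footprinted promoter peaks nearest in mean height to the Ppp2r5a and Jmjd6 loci. They lie by AW011738 at chr4:156203001-156203240, with 18 CpG in 240 bp, and by Zfp148 at chr16:33400301-33400444, with 18 CpG in 144 bp. The Zfp148 stretch is thus at least as dense in CpG as the Ppp2r5a and Jmjd6 loci.
AW011738 promoter: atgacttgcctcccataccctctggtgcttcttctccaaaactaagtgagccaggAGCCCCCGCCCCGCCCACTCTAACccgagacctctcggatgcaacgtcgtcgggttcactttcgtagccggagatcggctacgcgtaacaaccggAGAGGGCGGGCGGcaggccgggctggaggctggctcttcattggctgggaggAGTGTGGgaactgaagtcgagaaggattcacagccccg
Zfp148 promoter: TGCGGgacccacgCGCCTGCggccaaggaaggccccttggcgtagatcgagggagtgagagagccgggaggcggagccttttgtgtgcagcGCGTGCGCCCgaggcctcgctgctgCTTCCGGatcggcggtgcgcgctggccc

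The Ppp2r5a locus, at a height of 2.52 in animal 1 and 3.06 in animal 2, had no footprint in either animal. Its counterpart by AW011738, with heights of 2.53 and 3.06, had 3 footprints in animal 1 and 4 in animal 2. The Jmjd6 locus, with 2.61 and 2.87, had none, and its counterpart by Zfp148, with 2.49 and 3.001, had 4 and 3.

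Peaks without a footprint were concentrated at the low end of the strong peaks. Between heights 1 and 1.25, 716 of 5886 peaks in animal 1 and 820 of 6056 in animal 2 had no footprint, or 12.2% and 13.5%. Between 2 and 3 the share was 2.08% and 2.10%. Between 5 and 10 it was 0.0930% and 0.0498%, which is 5 and 3 peaks. None of the 3147 peaks of animal 1 and the 4368 of animal 2 with a height of 10 or more lacked a footprint. At a height of 2 or more the share over all peaks was 0.762% in place of 4.70%, as a mean of the animals. The lowest regions inside the threshold had heights of 1.003 and 1.005, and the nearest peaks without a footprint outside it had 0.996 and 0.998. In each animal 5 of the regions touched a footprint without overlapping it.

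**Figure D1:**
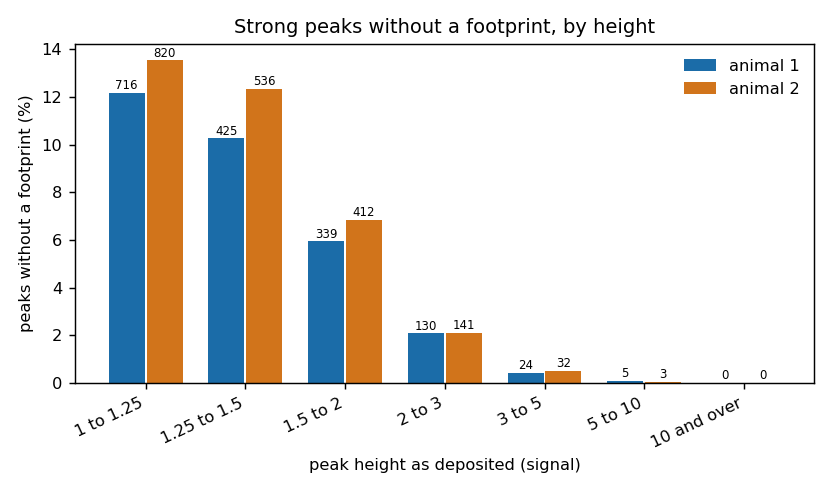
Share of strong peaks without a footprint (percent, y axis) by the deposited peak height (signal, x axis) in animal 1 and animal 2, with the number of such peaks above each bar. The share is 12.2% and 13.5% in the lowest bin and 0 from a height of 10 on.

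The strong peaks without a footprint lay mostly in promoters, while footprinted peaks of like height lay mostly outside them. The footprinted peaks of like height are all footprinted strong peaks, weighted in 20 height strata so that their heights are distributed as those of the peaks without a footprint. A peak was called a promoter peak when its midpoint lay within 1 kb of any annotated TSS of a protein-coding gene. Promoter peaks made up 1120 of 1639 regions without a footprint in animal 1 (68.3%) and 1503 of 1944 in animal 2 (77.3%), against 23.7% and 25.2% of footprinted peaks of like height. The means were 72.8% ± 6.35 and 24.4% ± 1.099 (SD, n = 2 each), so the difference was several times the spread between animals. Introns held 14.3% and 9.77% of the regions without a footprint, against 35.2% and 34.1% of the footprinted peaks. Intergenic DNA held 14.5% and 10.6% against 36.9% and 36.1%, and exons outside promoters held 2.87% and 2.32% against 4.24% and 4.66%. The midpoint fell in coding sequence in 11.96% and 15.4% of the regions without a footprint, against 3.53% and 4.45% of the footprinted peaks. Without weighting by height the mean promoter difference was 29.0 percentage points in place of 48.4.

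**Figure D2:**
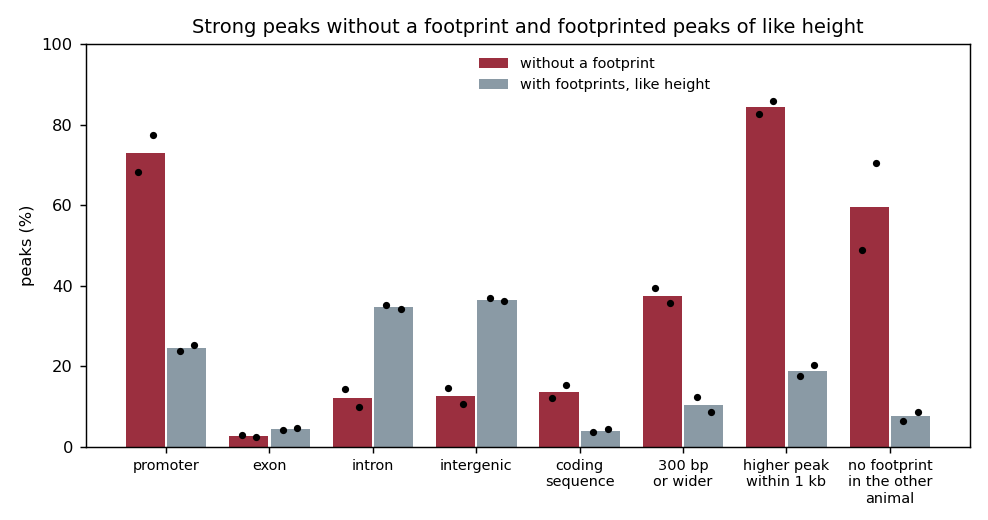
Percent of peaks (y axis) with each feature (x axis) among strong peaks without a footprint and, to their right, among footprinted strong peaks of like height. Bars are means over the animals and dots are animal 1 (left) and animal 2 (right). Promoters hold 72.8% of the peaks without a footprint and 24.4% of the others.

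Within promoters most regions without a footprint lay downstream of the nearest start site. Their midpoint was downstream of the nearest TSS in 70.8% of cases in animal 1 and 75.45% in animal 2, against 46.7% and 47.2% of footprinted promoter peaks of like height. The median distance from the TSS was 367.5 and 347 bp, against 171 and 182 bp. Among promoter peaks with a higher peak within 1 kb, the median distances were 369 and 350.5 bp without a footprint, against 335 and 347 bp with footprints, and the downstream shares were 71.9% and 76.1% against 57.2% and 57.75%. Of all promoter regions without a footprint, only 22.7% and 22.9% lay within 150 bp of a TSS, against 48.0% and 46.9%. Among all peaks with a height of at least 1 and under 2, those from 200 to 400 bp downstream of a TSS lacked a footprint in 41.4% of cases in animal 1 and 50.4% in animal 2. From 400 to 600 bp downstream the shares were 44.7% and 49.1%. In the 200 bp upstream of the TSS they were 11.2% and 13.0%. From 600 to 400 bp upstream the shares were 28.85% and 23.0%. Beyond 50 kb from any such TSS the shares were 3.19% and 3.13%.

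**Figure D3:**
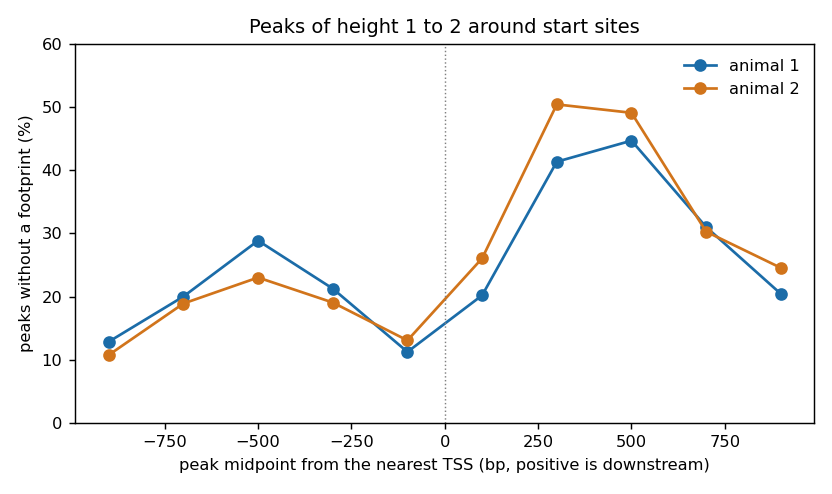
Share of peaks of height 1 to 2 without a footprint (percent, y axis) in bins of 200 bp by the distance of the peak midpoint from the nearest protein-coding TSS (x axis, positive is downstream), for animal 1 and animal 2. In both animals the share is highest 200 to 600 bp downstream, at 41.4% to 50.4%, against 11.2% and 13.0% in the 200 bp upstream of the TSS.

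Most regions without a footprint stood beside a much higher peak. Another, higher peak of the same list had its midpoint within 1 kb of 1355 of 1639 regions in animal 1 (82.7%) and of 1671 of 1944 in animal 2 (86.0%), against 17.6% and 20.2% of footprinted peaks of like height. The highest such neighbour had a median height of 7.71 and 9.38 and was 5.49 and 6.63 times as high as the region beside it, as a median. It held a footprint in 98.7% and 98.9% of cases, with a median of 5 footprints in each animal, which is usual at such heights. Of all peaks with heights of 5 to 10, only 0.0930% and 0.0498% lacked a footprint, with a median of 4 footprints. At 10 or more none lacked one, and the median was 5. The midpoints were 560 and 550 bp apart, with quartiles of 440 to 723.5 bp and 430 to 710 bp. Of the promoter regions with such a neighbour, 60.6% and 60.1% had it closer to the same TSS than they were themselves. The nearest footprint lay a median of 226 and 206 bp outside the region. Only 7.87% and 6.84% had one within 50 bp, and 9.95% and 8.49% had none within 1 kb. The flanks were open too: of the 500 bp on each side, a median of 63.0% and 58.7% was listed in the deposited cut-rate files at a false discovery rate under 0.05, against 13.4% and 10.3% around footprinted peaks of like height. Among promoter peaks with a higher peak within 1 kb these medians were 69.2% and 63.5% without a footprint, against 60.1% and 55.2% with footprints.

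Peaks beside a higher one lacked a footprint more often both in promoters and elsewhere. Among peaks with no higher neighbour the share without a footprint was near 2% in promoters and elsewhere, and at high and low CpG density. Among peaks of height 1 to 2 in promoters, those with a higher peak within 1 kb lacked a footprint in 979 of 2313 cases in animal 1 (42.3%) and 1327 of 2946 in animal 2 (45.0%). Promoter peaks with no such neighbour lacked one in 43 of 1874 cases (2.30%) and 44 of 1925 (2.29%). Outside promoters the shares were 17.98% and 13.4% with a higher neighbour and 1.88% and 1.81% without. With 4 or more CpG per 100 bp, peaks beside a higher one lacked a footprint in 45.4% and 47.55% of cases, and those with no higher neighbour in 1.94% and 2.30%. With fewer CpG the shares were 20.7% and 15.5% beside a higher peak and 1.95% and 1.81% elsewhere. Over all peaks of height 1 to 2 the difference between peaks with and without a higher neighbour was 31.4 percentage points ± 0.782 (SD, n = 2). It was 15.65 points among peaks 180 to 220 bp wide and 13.8 points outside promoters. This comparison was added after the values had been seen.

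**Figure D4:**
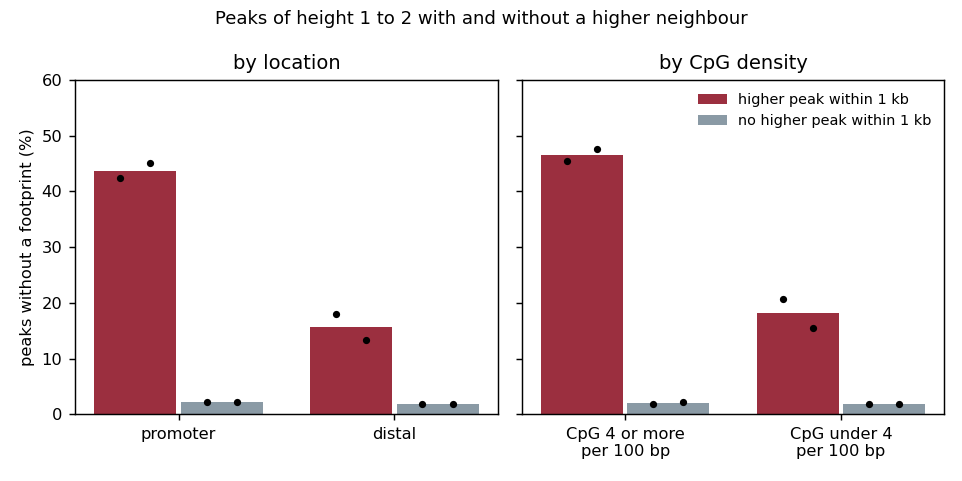
Share of peaks of height 1 to 2 without a footprint (percent, y axis) with and without a higher peak within 1 kb, by location (left panel) and by CpG density (right panel). Bars are means over the animals and dots are animal 1 (left) and animal 2 (right). The 4 bars with no higher neighbour are all near 2%, whatever the location or the CpG density.

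The regions without a footprint were wider and richer in CpG than footprinted peaks of like height. Their median width was 260 bp in both animals, against 200 and 180 bp, a difference of 70 bp ± 14.1 (SD, n = 2). Widths of 300 bp or more were reached by 39.4% and 35.6%, against 12.3% and 8.49%. The difference was 26 bp at a height of 2 or more. Among promoter peaks with a higher peak within 1 kb the median width was 280 bp in both animals without a footprint, against 260 and 220 bp with footprints. Narrow peaks were over-represented as well in animal 1, where 9.64% were under 150 bp against 3.59%, while in animal 2 the shares were 9.21% and 7.55%. Among peaks of height 1 to 2, those under 150 bp lacked a footprint in 22.8% and 13.8% of cases. From 150 to under 200 bp the shares were 2.18% and 3.25%, and from 400 bp up 28.2% and 37.0%. Median GC content was 59.0% and 63.9%, against 52.3% and 53.3%, and median CpG density was 5 and 7 per 100 bp, against 1.82 and 2. Among promoter peaks alone the median CpG density was 7 and 8.33 per 100 bp, against 5 and 5.45, and the GC difference over all regions, weighted by height and class together, was 4.20 points in place of 8.64. In the regions with no higher peak within 1 kb, 284 in animal 1 and 273 in animal 2, the median width was 200 and 180 bp, equal to that of footprinted peaks of like height, and CpG density was 1.67 and 2 per 100 bp, against 1.67 and 1.88.

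The regions without a footprint were not poorer in sequence that short reads can place uniquely. A mean of 98.6% and 98.7% of their bases started a 32-mer that occurs once in the genome, against 97.7% in footprinted peaks of like height in both animals. Repeats covered 7.30% and 6.09% of their bases, against 11.3% and 11.7%. Only 3.23% and 3.34% had under 90% unique 32-mers, against 6.07% and 5.95%. The Ppp2r5a locus, with 70.5% unique 32-mers, was one of these. Nearly all of the regions, 94.9% and 94.0%, were also in the authors' shorter peak list, about the same as the 96.3% and 93.4% of footprinted peaks of like height.

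The same property was often seen in the other animal, which the rule had not used. No footprint of animal 2 overlapped 48.75% of the regions of animal 1, and no footprint of animal 1 overlapped 70.3% of the regions of animal 2. Footprinted peaks of like height did so in 6.48% and 8.71% of cases, and all strong peaks in 4.93% and 7.22%. The mean was 59.5% ± 15.25 against 7.59% ± 1.58 (SD, n = 2 each) for footprinted peaks of like height. Among promoter peaks alone the shares were 56.3% and 79.6%, against 8.93% and 17.3% with footprints. Among promoter peaks with a higher peak within 1 kb they were 57.6% and 81.3%, against 17.7% and 33.9% with footprints. Among regions that had a peak of height 1 or more in the other animal the shares were 45.7% and 57.5%, against 2.96% and 5.68%. At a height of 2 or more the mean was 30.2%. A member of animal 1 overlapped a member of animal 2 in 587 cases, which is 35.8% of the members of animal 1 and, counted from animal 2, 586 or 30.1%. No peak at all was called in the other animal for 144 regions of animal 1 (8.79%) and 438 of animal 2 (22.5%), against 2.91% and 3.47%. In those intervals 70.7% and 92.3% of the bases were still listed at a false discovery rate under 0.05 in the other animal, against 11.9% and 45.1% for footprinted peaks with no peak there.

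The 587 loci without a footprint in both animals had the same features. Promoters held 85.2% of them, 93.0% had a higher peak within 1 kb in animal 1, and the median CpG density was 7.5 per 100 bp. Their median width was 300 bp in animal 1 and 280 bp in animal 2. Heights ran 0.17 higher in animal 2 on the log2 scale, as a median, with an SD across loci of 0.27. The median height of the whole peak list was also higher in animal 2, at 1.05 against 0.888. The median of the mean heights was 1.37 and the highest was 3.03.

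Of the 20 highest such loci 17 were in promoters and 15 had a higher peak within 1 kb in both animals. The first was in exon sequence of Irf1, which encodes a transcription factor of the interferon response, on chromosome 11 from 53770581 to 53770800, 182 bp downstream of the TSS. It had a height of 2.89 in animal 1 and 3.16 in animal 2 (mean 3.03 ± 0.186, SD, n = 2), beside a peak of 14.9 and 16.7. The Ppp2r5a locus stood beside a peak of 17.5 and 20.4. The Jmjd6 locus stood beside one of 11.8 and 12.2.

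Crlf2, a receptor chain for the cytokine TSLP, had a locus 425 bp downstream of its TSS with heights of 2.55 and 1.94, beside a peak of 8.75 and 10. Fth1, the heavy chain of the iron store ferritin, had heights of 2.79 and 1.96 beside 10.4 and 13.3, and 2 footprints of animal 2 fell within the interval of animal 1. Arpc2, a subunit of the actin-nucleating Arp2/3 complex, had 2.21 and 2.44 beside 14.0 and 14.7. Stub1, a ubiquitin ligase that works with chaperones, had 1.67 and 2.70 beside 15.03 and 17.96. Khk, which phosphorylates fructose, had 2.20 and 2.06 beside 6.75 and 9.48. Gtf2ird2, N4bp2l2, Prpf4b, Tle3 and Gm21985 gave the other loci with a higher neighbour, with mean heights from 2.17 at Tle3 to 2.60 at Gm21985.

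The other 5 loci had no higher neighbour in either animal. Arhgap25 had heights of 2.77 and 2.70 (mean 2.73 ± 0.0542, SD, n = 2) on chromosome 6 from 87496241 to 87496440, 27 bp upstream of the TSS, with no other peak within 1 kb and the nearest footprint of animal 1 at a distance of 1624 bp. It was the one protein-coding gene whose strongest promoter peak lacked a footprint in both animals. An intron of Cyba, a subunit of the phagocyte NADPH oxidase, held a locus on chromosome 8 from 122428221 to 122428420 with heights of 2.11 and 2.20 and no other peak within 1 kb. The intergenic locus nearest Hnrnpa3, 74090 bp upstream of that gene, had 2.40 and 2.52 and its nearest footprint at 3444 bp. An intron of Nedd4l, a ubiquitin ligase, held one of 2.48 and 2.06, and here 2 footprints of animal 1 fell within the interval of animal 2. Fbxw7, a substrate receptor of a ubiquitin ligase, had 1.82 and 2.61 with a lower peak of 0.552 and 1.13 beside it.

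**Figure D5:**
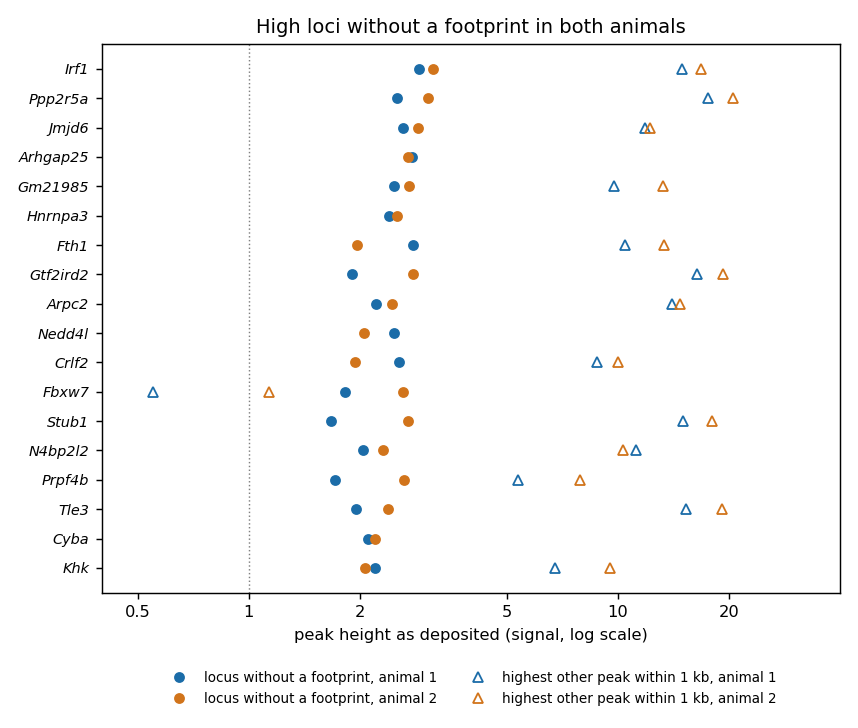
Deposited heights (signal, log scale, x axis) of 18 of the 20 highest loci without a footprint in both animals (filled circles) and of the highest other peak within 1 kb (open triangles), by nearest gene (y axis), for animal 1 and animal 2. The loci lie between 1.67 and 3.16, and 13 of them stand beside a peak of 5.37 or higher in both animals.

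Some regions lacked a footprint in one animal while the overlapping peak of the other animal held one. This was so for 870 regions of animal 1 (53.1%) and 575 of animal 2 (29.6%). The count takes a footprint anywhere in the other animal's peak, also outside the region itself. In animal 1 it therefore includes some regions that no footprint of animal 2 overlapped. No such share is given for footprinted peaks. The highest of animal 1 lay 208 bp upstream of the TSS of Sbk1 on chromosome 7, from 126272381 to 126272440. It was 60 bp wide with a height of 8.80 and touched the next footprint. The overlapping peak of animal 2, with a height of 10.1, held 5 footprints, while 2 footprints of animal 2 overlapped the 60 bp interval itself. In intergenic DNA 50658 bp from the TSS of Spsb1, the nearest protein-coding gene, the heights were 5.70 in animal 1 and 4.60 in animal 2, with 4 footprints in animal 2 and one of animal 1 only 3 bp outside. Mettl9, with 5.64 and 6.38, and Tpp2, a peptidase, with 5.54 and 5.57, had footprints 4 and 2 bp outside and widths of 60 and 140 bp. The peak nearest Myh9, a non-muscle myosin heavy chain, had 5.02 and 4.82 with its nearest footprint at 1435 bp in animal 1, while animal 2 had 2 in its peak. In animal 2 the highest was at the TSS of Lrmp, a membrane protein of lymphoid cells, with 5.18 in animal 2 and 5.01 in animal 1, where it held 4 footprints. Next, in the same order of animals, came Sfi1 with 5.00 and 4.10, in sequence with 71.1% unique 32-mers, and intergenic DNA nearest Klf13 with 4.68 and 4.81. Gm16181 with 4.55 and 5.15 and an exon of Aldh3b1 with 4.43 and 3.50 completed the list.

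Counted by gene, 1126 of 11337 protein-coding genes with a promoter peak of height 1 or more had at least 1 peak without a footprint in animal 1 (9.93%), and 1507 of 11678 in animal 2 (12.9%), 588 of them in both. In only 23 and 19 of these genes was it the strongest promoter peak. In the others the strongest had a median height of 9.59 and 10.8. Immediate early genes, which cells induce within minutes of a stimulus, had the property in 6 of 19 in animal 1 and 8 of 19 in animal 2 (31.6% and 42.1%). The genes with such a peak in both animals included Egr1 (1.55 and 2.38), Jun (1.81 and 1.84) and Ier5 (1.73 and 1.31, at separate peaks), whose strongest promoter peaks reached 11.02 and 10.7, 19.45 and 17.5, and 12.9 and 12.1. Ribosomal protein genes had it in 3 of 80 and 6 of 80 (3.75% and 7.5%), with Rplp0 in both, at 1.41 and 1.38 beside 21.5 and 20.1. Mitochondrial ribosomal protein genes stood at 7.69% and 8.97%, with Mrpl34, Mrpl18 and Mrps23 the highest of 4 in both animals. The Zfp zinc finger genes stood at 8.11% and 10.4%, with Zfp706, Zfp36l1 and Zfp263 the highest of 12, the peaks of the animals lying apart at Zfp706 and Zfp36l1.

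The B cell, T cell and MHC class II lists held such genes at shares of 6.67% to 20%, beside 9.93% and 12.9% of all protein-coding genes. B cell genes had such a peak in 2 of 20 in each animal, among them Pax5, the factor that fixes B cell identity, in both, at 1.33 and 1.11 beside 11.4 and 13.0. The T cell list had 1 of 15 and 2 of 15, the MHC class II list 1 of 10 and 2 of 10, and the macrophage list 0 of 6 and 1 of 7. Histone genes had 6 of 58 and 3 of 56, with the linker histones Hist1h1c and Hist1h1e in both animals. Germ cell genes had 1 of 4 and 1 of 3, and olfactory and vomeronasal receptors 0 of 4 and 1 of 5.

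The motif content was read as plain matches on either strand in the central 150 bp, which are not sites. The GC box GGGCGG, bound by SP and KLF factors, matched in 26.1% and 32.3% of the regions without a footprint, against 14.9% and 16.8% of footprinted peaks of like height, 26.6% and 31.0% of those of like height and class and 18.8% and 21.4% of all listed peaks. The NF-Y box CCAAT matched in 10.1% and 9.002%, against 15.1% and 14.98% by height, 15% and 14.7% by height and class and 16.7% and 16.5% of all peaks. The CTCF core AGNGGGCG, which shares letters with the GC box, matched in 5.98% and 6.48%, against 9.67% and 10.5%, then 11.2% and 12.1%, and 9.23% and 10.3% of all peaks. NRF1 matches, GCGCNTGCG, stood at 0.976% and 0.7202%, against 1.26% and 1.33%, then 2.36% and 2.70%, and 2.47% and 2.74%. The ETS word CCGGAAG matched in 4.39% and 4.53%, against 3.40% and 3.15%, then 4.75% and 4.32%, and 4.43% and 4.64%. Of the 20 words searched, 15 matched less often in both animals than in footprinted peaks of like height and class, 2 matched more often in both and 3 differed in direction between the animals. By height alone, 14 matched less often in both animals, 4 more often in both and 2 differed in direction. The 2 words more frequent by height and class were the PU.1 word GAGGAAG and the Pol III B box GTTCGANTC. GAGGAAG matched in 14.1% and 11.6%, against 11.8% and 10.3%. By height alone it was set against 13.5% and 12.6%, so it was lower in animal 2. The B box matched in only 8 and 6 regions, or 0.488% and 0.309%, against 0.173% and 0.241% by height and class. A word without a match says only that its letters are not in the window.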

How the data were processed

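DNase-seq was measured in 2 spleens, each library with its own peaks, footprints and cut-rate intervals on mm10, derived from that library alone per the deposited file listings. Aligner, peak caller and footprint caller: not given in the sources used here. Peak heights were deposited as a signal, and the deposited cut-rate files give a q-value (false discovery rate) per short interval, listed only under 0.05. The deposited footprint files hold the constant 0.01 in the column for a p-value, so footprints could not be ranked. The footprint files list 211394 intervals in animal 1 and 215907 in animal 2, with a median width of 10 and 11 bp. If a height step is 1 cut, the depth is 139.6 and 147.3 M cuts. Otherwise it is unknown, and no counting error was modelled.

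Genes and start sites are from GENCODE M21, with 21911 protein-coding gene names on chromosomes 1 to 19, X and Y. The classes, by peak midpoint, were promoter, exon, intron and intergenic, in that order. Footprinted strong peaks were weighted to the members' heights in 20 quantile strata, or 10 within a class. Sequence measures were read from GRCm38.p6, and 32-mers were counted over its main chromosomes. Motifs were 20 fixed words. A few peaks overlap others of their list and each was kept. Scripts used Python 3.11.15, numpy 2.4.6, pandas 2.3.3 and numba 0.67.0, and were tested on simulated data.

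The members, gene lists, motifs and alternatives were chosen with earlier results of these data known. Genes named are those at the 20 highest loci without a footprint in both animals, at the 5 highest members per animal that are footprinted in the other, genes whose strongest promoter peak is a member in both, and up to 3 per gene list, taken by height. The sequences of the highest loci were limited, after the loci were seen, to stretches of at least 100 bases outside annotated untranslated regions, which left out Irf1 and Gm21985. Of the 20 loci, 2 are not reported here. Alternatives were another peak list, other height limits, footprint rules, promoter widths, weightings and word lengths, and each animal left out.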

Additional observations from a re-analysis of the deposited data

How the results depend on the processing

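No difference between sets of peaks changed sign under any alternative run. The share without a footprint, and the share without one in the other animal either, are percentages and could not change sign. Of the 63 alternatives, besides those that leave out an animal, 37 moved a value by less than 1 SD between the animals and 26 by more. Those 26 follow, as means over the animals, and the cause of each shift was not tested. The share of strong peaks without a footprint, 4.70%, was 0.762% at a height of 2 or more, 4.99% from each library's median height up and 4.36% with peaks widened by 50 bp. The promoter difference, 48.4 percentage points, was 34.3 at a height of 2 or more, 29.0 unweighted, 35.0 weighted by height and width, 33.7 with promoters of 500 bp and 42.4 with the most 5′ start site only. The width difference, 70 bp, was 26 bp at a height of 2 or more and 50 bp weighted by height and class. The share without a footprint in the other animal either, 59.5%, was 30.2% at a height of 2 or more. The GC difference, 8.64 points, was 5.03 at a height of 2 or more, 5.29 unweighted and 4.20 weighted by height and class. The difference in unique 32-mers, 0.970 points, was 0.855 in the shorter list, 1.12 without X and Y, 0.468 unweighted, 0.810 weighted by height and width, 0.772 weighted by height and class and 1.83 with 24-mers. The higher-neighbour difference, 31.4 points, was 33.8 in the shorter list, 29.5 with peaks widened by 50 bp, 21.35 at heights of 1.5 to 2, 41.4 in promoters, 13.8 outside them and 15.65 at widths of 180 to 220 bp. That difference, its alternatives and weighting in 100 height strata were added after the data were seen.

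With 1 animal left out in turn, the values ran from 4.53% to 4.86%, 44.7 to 52.1 points, 60 to 80 bp, 48.75% to 70.3%, 6.69 to 10.6 points, 0.910 to 1.03 points and 30.8 to 31.9 points, in the same order. No paired analysis was possible because both animals belong to 1 group. Footprints were called by the authors in each library, so how often a footprint goes uncalled at a given height cannot be told apart from its absence.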

Other observations

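Start sites of some noncoding genes lay near the strong peaks without a footprint. A TSS of an antisense gene was the nearest TSS of any gene and within 1 kb for 46 of them in animal 1 and 56 in animal 2, or 2.81% and 2.88%, against 1.04% and 1.14% of footprinted peaks of like height. For miRNA genes the shares were 0.732% and 0.669%, against 0.312% and 0.316%, and for lincRNA genes 1.71% and 1.49%, against 1.63% and 1.68%. A tRNA gene stood within 1 kb of 12 regions in each animal, or 0.732% and 0.617%, against 0.303% and 0.371%. The footprinted peaks in these comparisons were weighted by height only. Promoters of protein-coding genes held 68.3% and 77.3% of the regions, against 23.7% and 25.2% of those peaks. Whether the shares differ among peaks of like location was not tested. Few of the regions, 14 in each animal, had 50% or more of their bases in repeats, or 0.854% and 0.7202%, against 4.27% and 5.07% of footprinted peaks of like height.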
